A study of Homo sapiens with 10 samples.

Results

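The genes described here are 10 members of the integrated stress response: the transcription factor ATF4, asparagine synthetase (ASNS), which is a target of ATF4, and 8 further genes of the stress branch, ATF3, DDIT3, TRIB3, CHAC1, SESN2, DDIT4, CEBPB and PPP1R15A. They were found by gene symbol, and each has 1 row among the 22626 rows of the count table. The group was chosen by its values in the comparison reported here, HG against control in these same libraries, so the levels and fold changes of the members are a description. Where members past the threshold are counted, the count is part of that description and supports nothing. RNA was sequenced from ARPE-19, an established human cell line of the retinal pigment epithelium (RPE), the cell layer that supports the photoreceptors. The control group received 32 mM mannitol on top of 5.5 mM D-glucose for 48 h (n = 5), and the HG group received 37.5 mM D-glucose for 48 h (n = 5). All cultures were ARPE-19 cells in DMEM with fetal bovine serum. Glucose and mannitol both differ between the groups and cannot be told apart. The labels do not say whether the libraries of a group came from separate cultures, so p-values measure only the spread between these libraries, which may be technical.

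Sequencing depth was similar, with 33039260 to 45864176 counts in a control library and 32448991 to 44400714 in an HG library. Control libraries are named by replicate number and HG libraries by their deposited column, HG_1 to HG_5, since the labels give only the group of each HG column. Values are CPM after TMM normalization, which scales each library by a trimmed mean of its ratios to a reference library, and a gene is said to have risen or fallen when edgeR's quasi-likelihood test gave an adjusted p under 0.05 over all 14936 rows tested. Before any result, 2 libraries stand apart. In HG_1 and in control replicate 2, log2 levels rose with GC content, with slopes of 0.188 and 0.17 per 10 points of GC, against slopes between -0.0916 and -0.00519 in the other libraries. Results that rest on these 2 libraries are given with and without them.

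The cell label was compared with marker genes. Of 14 RPE markers, the epithelial keratin KRT8 was the most abundant, at a mean of 1538 CPM over all 10 libraries, and the transcription factors MITF and OTX2 were at 57.8 ± 4.79 and 96.2 ± 3.98 CPM in the control group (SD, n = 5). Of the 14 markers, 5 were absent or nearly so, as TTR had no count in any library and RPE65, TYR, DCT and SERPINF1 were below 1 CPM. The others, among them PMEL, RLBP1 and BEST1, had a mean of at least 1 CPM. BEST1 varied between 0.577 and 551 CPM within the control group, and its log2 fold change of -4.97 (SE 1.64) passed only when control replicate 2 or 3 was left out, or under some other settings. The summed level of the 14 RPE markers was between 2835 and 3592 CPM in the control libraries and between 1798 and 2472 CPM in the HG libraries, and KRT8, KRT18 and PMEL fell. Without control replicate 2 and HG_1, or with a correction for GC content and length, MITF, OTX2, RLBP1 and BEST1 passed as well, all of them lower in the HG group. RLBP1, at a log2 fold change of -0.32 (SE 0.131) with all libraries, also passed without HG_1 alone. Markers of other cells were low: all 3 endothelial markers, 4 of 5 fibroblast markers and 2 of 3 blood markers were below 1 CPM, and CDH5, LUM and HBB had no count in any library. The exceptions were the collagen gene COL1A1, which fell from 45.3 ± 5.28 to 18.1 ± 1.92 CPM, and the lysosomal protein gene CD68, which rose from 70.3 ± 10.5 to 114 ± 17.0 CPM (SD, n = 5 each). In bulk RNA, fewer cells of a type and less RNA per cell cannot be told apart. The part of these marker changes in the values below was not tested. The glucose-induced genes TXNIP and ARRDC4 both rose, ARRDC4 from 3.28 ± 0.438 to 5.49 ± 0.716 CPM.

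In the integrated stress response, kinases that sense ER stress, amino acid shortage, viral RNA or heme shortage phosphorylate the translation factor eIF2, which slows translation in general and favors translation of ATF4 mRNA. ATF4 then activates genes for amino acid supply and redox balance and, with partners of the same bZIP family, a second tier of stress regulators that includes CHOP, the protein encoded by DDIT3. Because ATF4 is controlled mainly at translation, its mRNA level is not a measure of its protein. In the RPE, stress of this kind has been studied in connection with oxidative damage and diabetic retinopathy.

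All 10 members were above the filter on low counts in both groups and all 10 had a higher mean in the HG group. ASNS, CHAC1 and TRIB3 had the largest differences, DDIT3 and ATF3 followed, and ATF4, SESN2, DDIT4, CEBPB and PPP1R15A differed least. The HG and control libraries did not overlap in 8 of the 10, where 6.74% of all genes tested had every HG library above every control library and 6.91% every HG library below. Of the members, 9 had an adjusted p under 0.05, all of them higher, where 15.4% of all genes tested passed in either direction, 7.62% higher and 7.80% lower. Since the members were chosen on this contrast, nothing is read from these counts. PPP1R15A did not pass, and its groups overlapped, as did those of CEBPB.

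**Figure D1:**
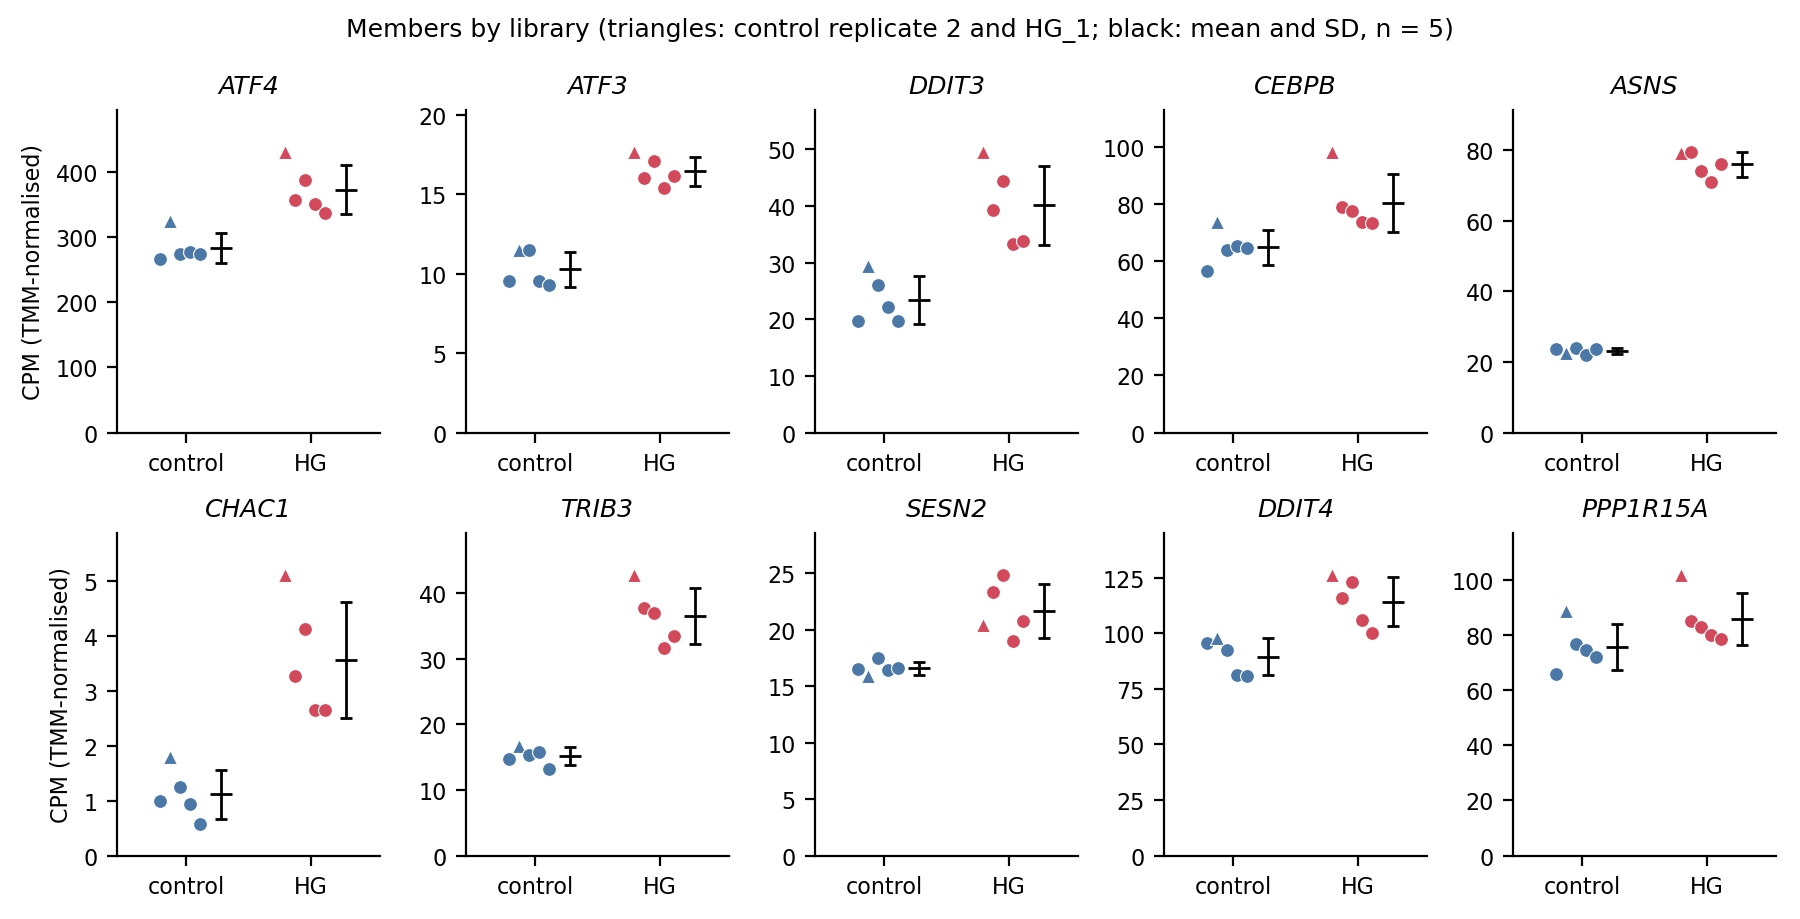
Each panel plots 1 member, with TMM-normalised CPM on the vertical axis and the 5 control (blue) and 5 HG (red) libraries as points, control replicate 2 and HG_1 as triangles, and the mean and SD in black. In ASNS the HG libraries sit between 71.1 and 79.6 CPM, far above the control libraries at 22.0 to 23.9, whereas in PPP1R15A only HG_1 lies above the highest control library.

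Among the transcription factors, ATF4 (ENSG00000128272, chr22:39519695-39522685, plus strand, GRCh38), the factor that gives the response its transcriptional arm, was at 267, 325, 274, 277 and 274 CPM in control replicates 1 to 5 and at 431, 357, 388, 351 and 338 CPM in HG_1 to HG_5. The groups did not overlap, but control replicate 2 came within 13 CPM of HG_5. The highest value of each group was in the library with the GC trend. Means were 283 ± 23.7 and 373 ± 37.4 CPM (SD, n = 5 each), a log2 fold change of 0.40 (SE 0.0768). On the deposited FPKM scale the ranges of the groups overlapped, at 156 to 191 FPKM in the control and 184 to 262 FPKM in the HG group. The pseudogenes ATF4P3 and ATF4P4 share 4.53% of the 100-base windows of the ATF4 transcript, so reads from these windows could be assigned to either.

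ATF3 (ENSG00000162772, chr1:212565334-212620777, plus strand), a bZIP factor induced early in many kinds of stress, was at 9.52, 11.5, 11.5, 9.53 and 9.28 CPM in control replicates 1 to 5 and at 17.7, 16.0, 17.1, 15.4 and 16.1 CPM in HG_1 to HG_5. Every HG library was above the highest control. This is a log2 fold change of 0.68 (SE 0.0854).

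DDIT3 (ENSG00000175197, chr12:57516588-57521737, minus strand), which encodes CHOP, a factor linked to cell death in prolonged ER stress, was at 19.6, 29.3, 26.0, 22.2 and 19.7 CPM in control replicates 1 to 5 and at 49.6, 39.4, 44.5, 33.4 and 33.8 CPM in HG_1 to HG_5. The groups did not overlap, and both were wide, with a coefficient of variation of 18.1% in the control and 17.4% in the HG group. Its log2 fold change was 0.78 (SE 0.144). Exons of the methionyl-tRNA synthetase gene MARS1, on the other strand, overlap 27.2% of the exonic bases of DDIT3, and whether the counting used strand is not given in the sources used here. MARS1 itself rose from 135 ± 7.23 to 174 ± 7.91 CPM (SD, n = 5 each), with a log2 fold change of 0.37 (SE 0.0493), so the share of its reads within the DDIT3 value is uncertain.

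CEBPB (ENSG00000172216, chr20:50190734-50192689, plus strand), whose product pairs with ATF4 and with CHOP, was at 56.5, 73.7, 64.1, 65.5 and 64.8 CPM in control replicates 1 to 5 and at 98.3, 78.8, 77.7, 73.8 and 73.4 CPM in HG_1 to HG_5. Control replicate 2 lay above HG_5, and the other 4 HG libraries lay above all controls. CEBPB had a log2 fold change of 0.31 (SE 0.0921). CEBPB is counted among the 9 members that passed with all libraries, but it no longer passed when any 1 of HG_2, HG_3, HG_4, HG_5 or control replicates 1, 3, 4 or 5 was left out, with log2 fold changes then between 0.26 and 0.34. An antisense gene, CEBPB-AS1, covers 11.8% of its exonic bases.

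ASNS (ENSG00000070669, chr7:97852118-97872542, minus strand) makes asparagine from aspartate and glutamine. Its levels were 23.7, 22.5, 23.9, 22.0 and 23.7 CPM in control replicates 1 to 5 and 79.3, 79.6, 74.1, 71.1 and 76.1 CPM in HG_1 to HG_5. No member was tighter within the HG group, with a coefficient of variation of 4.70%, and control replicate 2 and HG_1 were not apart from the rest. The log2 fold change was 1.72 (SE 0.0505), a 3.28-fold difference, which places ASNS 36th from the top among the 14936 rows tested. A same-strand processed transcript, AC079781.5, shares 79.4% of the 100-base windows of the ASNS transcript and has no row in the table.

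Of the other effectors, CHAC1 (ENSG00000128965, chr15:40952962-40956519, plus strand), an enzyme that breaks down glutathione, had the lowest level and the widest spread. It was at 1.00, 1.79, 1.25, 0.938 and 0.584 CPM in control replicates 1 to 5 and at 5.12, 3.27, 4.12, 2.64 and 2.65 CPM in HG_1 to HG_5, from 26 to 80 counts in a control library and 87 to 197 in an HG library. The groups did not overlap, and the highest library of each group was the one with the GC trend. The log2 fold change was 1.67 (SE 0.304), close to that of ASNS but with an error 6 times as large. With limma on log2(FPKM + 1) they were not close, at 0.915 for CHAC1 and 1.54 for ASNS. With limma on log2(FPKM + 0.1) they were, at 1.56 for CHAC1 and 1.62 for ASNS.

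TRIB3 (ENSG00000101255, chr20:362835-397559, plus strand), a pseudokinase that restrains ATF4 and AKT, was at 14.7, 16.8, 15.3, 15.8 and 13.2 CPM in control replicates 1 to 5 and at 42.8, 37.8, 36.9, 31.6 and 33.5 CPM in HG_1 to HG_5. The lowest HG library was well above the highest control. TRIB3 thus had a log2 fold change of 1.27 (SE 0.0932), a 2.41-fold difference.

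SESN2 (ENSG00000130766, chr1:28259527-28282491, plus strand), a leucine sensor that inhibits mTORC1, was at 16.5, 15.9, 17.5, 16.5 and 16.6 CPM in control replicates 1 to 5 and at 20.4, 23.3, 24.9, 19.0 and 20.8 CPM in HG_1 to HG_5. The control libraries were tight, the HG libraries less so, and the groups did not overlap. Unlike most members, SESN2 was lowest among the controls in control replicate 2. Between the means lay a log2 fold change of 0.39 (SE 0.0782).

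DDIT4 (ENSG00000168209, chr10:72273920-72276036, plus strand), another inhibitor of mTORC1, which is also induced in hypoxia, was at 95.8, 98.0, 92.3, 81.0 and 80.6 CPM in control replicates 1 to 5 and at 126, 116, 123, 106 and 100.2 CPM in HG_1 to HG_5. The groups were separated by the small gap between control replicate 2 and HG_5. The log2 fold change was 0.35 (SE 0.0815). The antisense gene DDIT4-AS1 covers 41.2% of its exonic bases and has no row in the table.

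PPP1R15A (ENSG00000087074, chr19:48872392-48876057, plus strand) encodes GADD34, which brings a phosphatase to eIF2 and so ends the response. It was at 65.9, 88.6, 76.7, 74.7 and 72.2 CPM in control replicates 1 to 5 and at 102, 85.1, 82.8, 80.0 and 78.4 CPM in HG_1 to HG_5. Only HG_1 lay above control replicate 2, while the other HG libraries lay above the other controls. Its log2 fold change, 0.18 (SE 0.0905), was the smallest of the 10.

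Without control replicate 2 and HG_1, the 4 remaining HG libraries lay above the 4 remaining controls in all 10 members, CEBPB and PPP1R15A included, where 15.1% of all genes tested had every HG library above every control library. PPP1R15A was then at 65.9 to 76.7 CPM in the control and 78.4 to 85.1 CPM in the HG group, and CEBPB at 56.5 to 65.5 and 73.4 to 78.8 CPM. The groups were also apart in all 10 without control replicate 2 alone, but in 8 without HG_1 alone. For these single omissions the share of all genes was not computed. Control replicate 2 was the highest control library in 8 of the members, so its omission makes separation easier, and nothing is read from these counts. These counts were taken after the values had been seen. Without both libraries the log2 fold changes were 0.17 for PPP1R15A and 0.28 for CEBPB, close to those with all libraries. Each library alone moved them in opposite directions. Without HG_1 they were 0.11 and 0.23, and without control replicate 2 they were 0.24 and 0.36. PPP1R15A, which did not pass with all libraries or without either of these alone, passed without both and with the GC correction, fits in which more of all genes passed too.

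**Figure D2:**
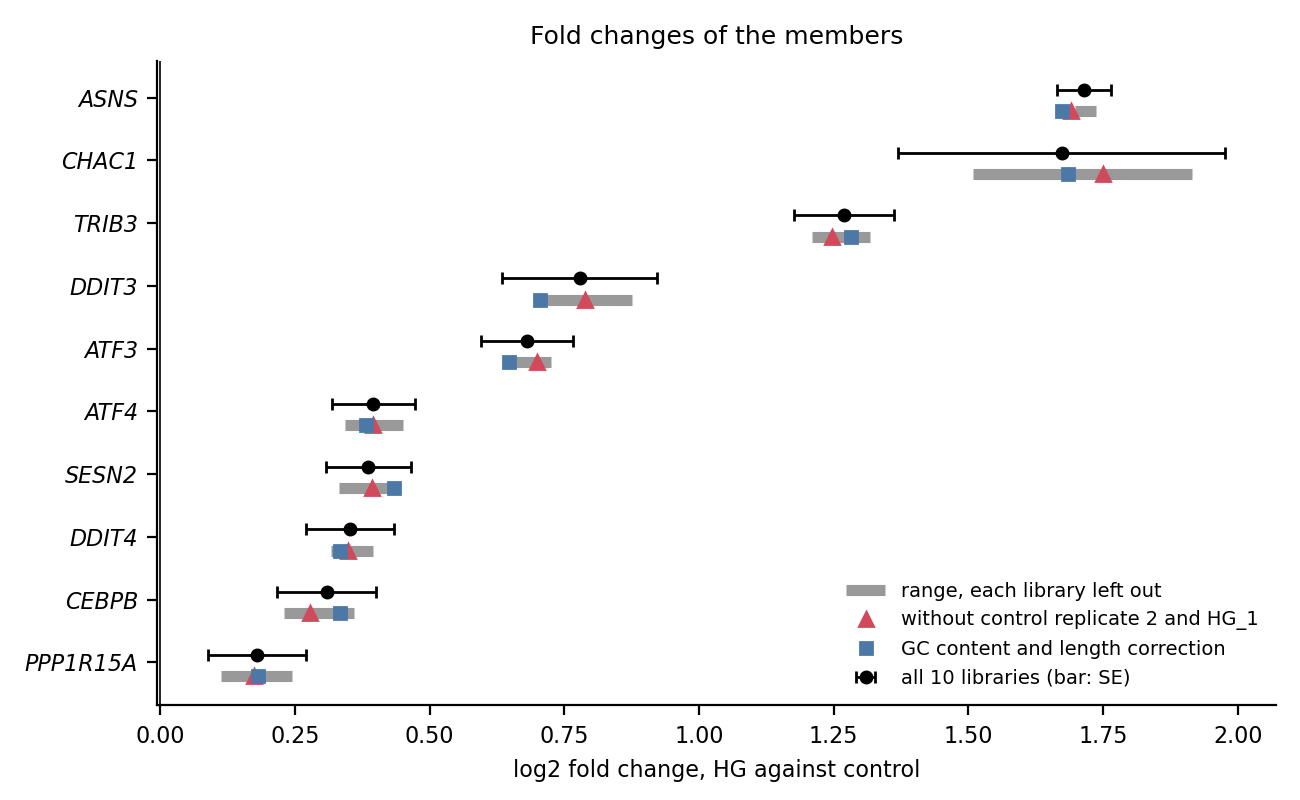
The horizontal axis is the log2 fold change of HG against control for each member, with black points for all 10 libraries and their SE, gray bars for the range over single-library omissions, triangles for the fit without control replicate 2 and HG_1, and squares for the fit corrected for GC content and length. The points of ASNS, CHAC1 and TRIB3 lie above 1.2 in all 3 fits, and CHAC1 has the widest bar, from 1.51 to 1.92.

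The same libraries were high or low in many members. In the control group, replicate 2 was the highest library for 8 of the 10 members, all but ASNS and SESN2. In the HG group, HG_1 was the highest for the same 8 members. HG_4 was the lowest HG library for 6 members and HG_5 for the other 4. The members are richer in GC than most genes: 9 of 10 lie above the median GC content of 48.5% over the tested genes with a value, with a range from 47.0% for ASNS to 66.2% for CEBPB. The part of GC content in the spread of single members was not tested.

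**Figure D3:**
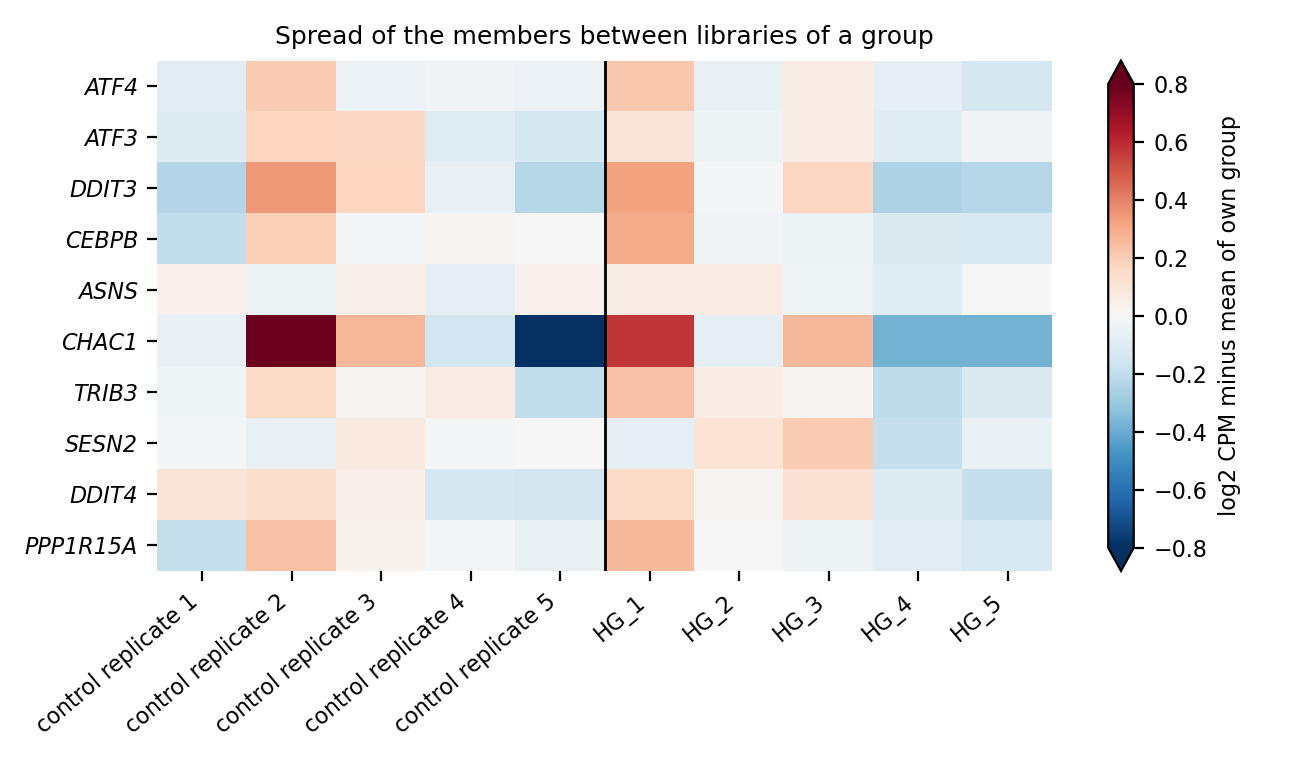
Color shows log2 CPM of each member in each library minus the mean of its own group, red above and blue below, with control libraries left of the line and HG libraries right of it. Control replicate 2 is above its group mean in 8 members and HG_1 in 9, and ASNS is nearly white throughout.

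Levels were compared between genes on the deposited FPKM scale, a measure per length. The ratio of FPKM to CPM of a gene is not the same in every library, so the FPKM are not these counts divided by a fixed length. In the control group ATF4 was the most abundant member at 173 ± 14.2 FPKM, followed by DDIT4 at 47.4 ± 3.90, CEBPB at 32.5 ± 2.74, PPP1R15A at 27.0 ± 3.20 and DDIT3 at 23.5 ± 4.00 FPKM (SD, n = 5). The ranges of CEBPB and PPP1R15A overlapped, as did those of PPP1R15A and DDIT3. Lower in the same group were ASNS at 9.92 ± 0.815, TRIB3 at 6.14 ± 0.466, ATF3 at 5.38 ± 0.611, SESN2 at 4.42 ± 0.201 and CHAC1 at 0.709 ± 0.273 FPKM, and only TRIB3 and ATF3 overlapped among these neighbors. In the HG group the order changed in 1 place: DDIT3, at 40.8 ± 6.41 FPKM, stood level with CEBPB, at 40.6 ± 4.25, and above PPP1R15A, at 31.2 ± 3.56. ASNS reached 30.7 ± 1.98 FPKM in the HG group, where its range overlapped that of PPP1R15A, while in the control group it lay below PPP1R15A without overlap. The groups of ATF4 overlapped on this scale but not in CPM, those of CEBPB in CPM but not on this scale, and those of PPP1R15A on both.

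**Figure D4:**
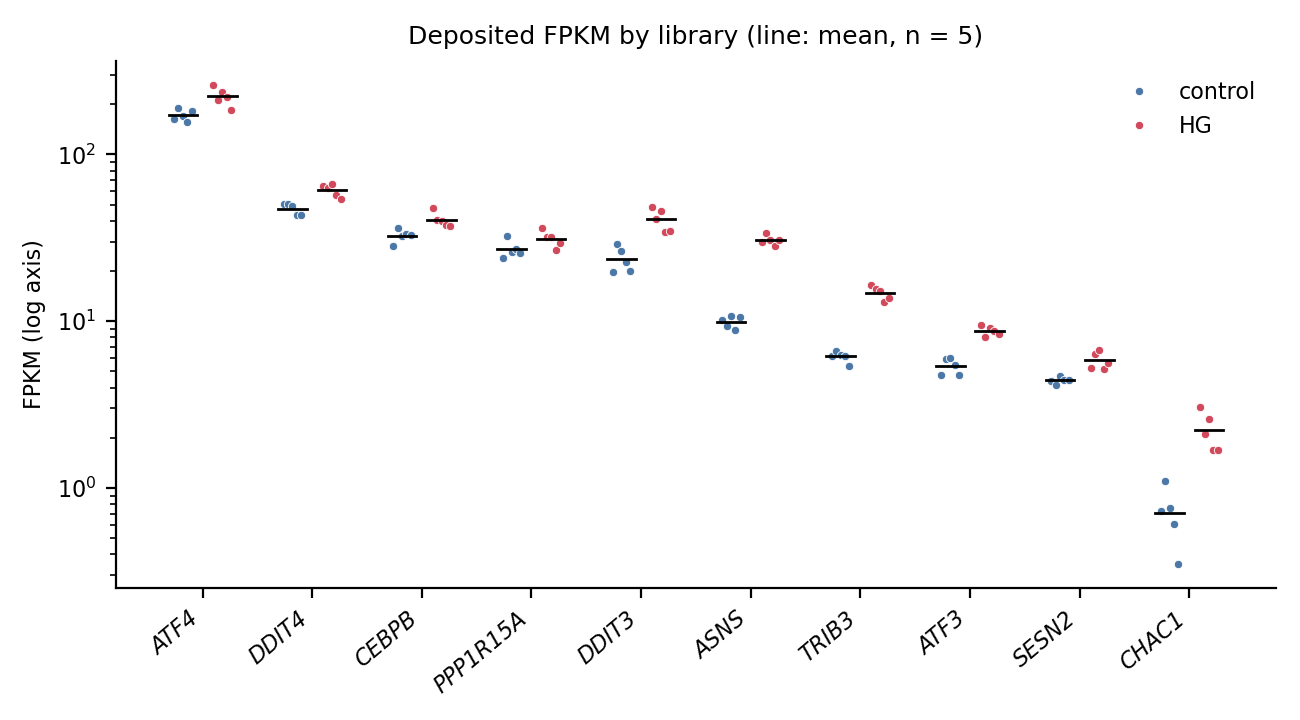
The vertical axis is the deposited FPKM on a log scale, with members ordered by their control mean, points for the 5 control (blue) and 5 HG (red) libraries, and a line at each mean. ATF4 stands highest at 173 and 224 FPKM, and ASNS moves from 9.92 to 30.7 FPKM, the level of PPP1R15A.

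Promoters are shown because the members are described as targets of ATF4, which binds, with a C/EBP partner, an element known as CARE. All 10 members had at least 1 window from 250 bases before to 50 bases after a start site in the RefSeq table (GRCh38.p14). Windows were searched on both strands for the CARE core TGATGCAA, for its looser form TGATGNAA, which includes the core, for the cAMP response element TGACGTCA and for the ER stress response element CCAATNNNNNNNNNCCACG. Of all 27305 genes in the table, 1.08% hold the core in a window, 4.46% the looser form, 2.25% the cAMP response element and 0.0916% the ER stress response element. The core was in the window of CHAC1, the looser form also in those of ASNS and ATF3, and the cAMP response element in that of PPP1R15A. The other 6 members held none of these letters in their windows, which says nothing of sites elsewhere. The 4 stretches below read 5′ to 3′ along the strand of the gene, with the match in capitals, at chr7:97872439-97872506 (minus strand) for ASNS, chr1:212565186-212565253 (plus strand) for ATF3, chr15:40953232-40953299 (plus strand) for CHAC1, where the core is on the opposite strand, and chr19:48872333-48872400 (plus strand) for PPP1R15A.
ASNS: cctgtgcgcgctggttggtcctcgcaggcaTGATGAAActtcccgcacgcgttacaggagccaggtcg
ATF3: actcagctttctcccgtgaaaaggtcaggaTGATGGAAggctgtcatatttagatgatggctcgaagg
CHAC1: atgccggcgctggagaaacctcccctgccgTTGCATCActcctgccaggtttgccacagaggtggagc
PPP1R15A: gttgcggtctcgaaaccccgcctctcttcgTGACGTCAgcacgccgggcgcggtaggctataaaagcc

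The genes with library profiles most like ASNS and ATF4 were taken by the smallest root mean square difference in log2 CPM, relative to the control mean, over the 10 libraries and 12355 genes. For ASNS they were PAPPA2 (0.252), MMP3 (0.254), CPEB1 (0.280), FAHD2B (0.328) and PSAT1 (0.335). PSAT1, an enzyme of serine synthesis, was the only one of these with a group mean above 30 CPM. For ATF4 the differences were smaller: SARS1 (0.047), CDKN1A (0.050), JUND (0.052), CTSL (0.055) and SLC6A8 (0.056). SARS1 charges tRNA with serine, and JUND is itself a bZIP factor. Among the members, ATF4 was nearest to CEBPB (0.088) and ASNS to TRIB3 (0.344).

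Other genes of the pathway were taken from lists, each described by how many of its genes rose or fell and by its median log2 fold change, beside a median of 0.001 over all genes tested. Over all these lists, with the members left out, 36 of 116 tested genes rose and 18 fell, where 7.62% of all genes tested rose and 7.80% fell. Without control replicate 2 and HG_1, 44 of 115 rose and 20 fell, but of all 14899 genes then tested 1984 rose and 2051 fell, more than with all libraries.

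**Figure D5:**
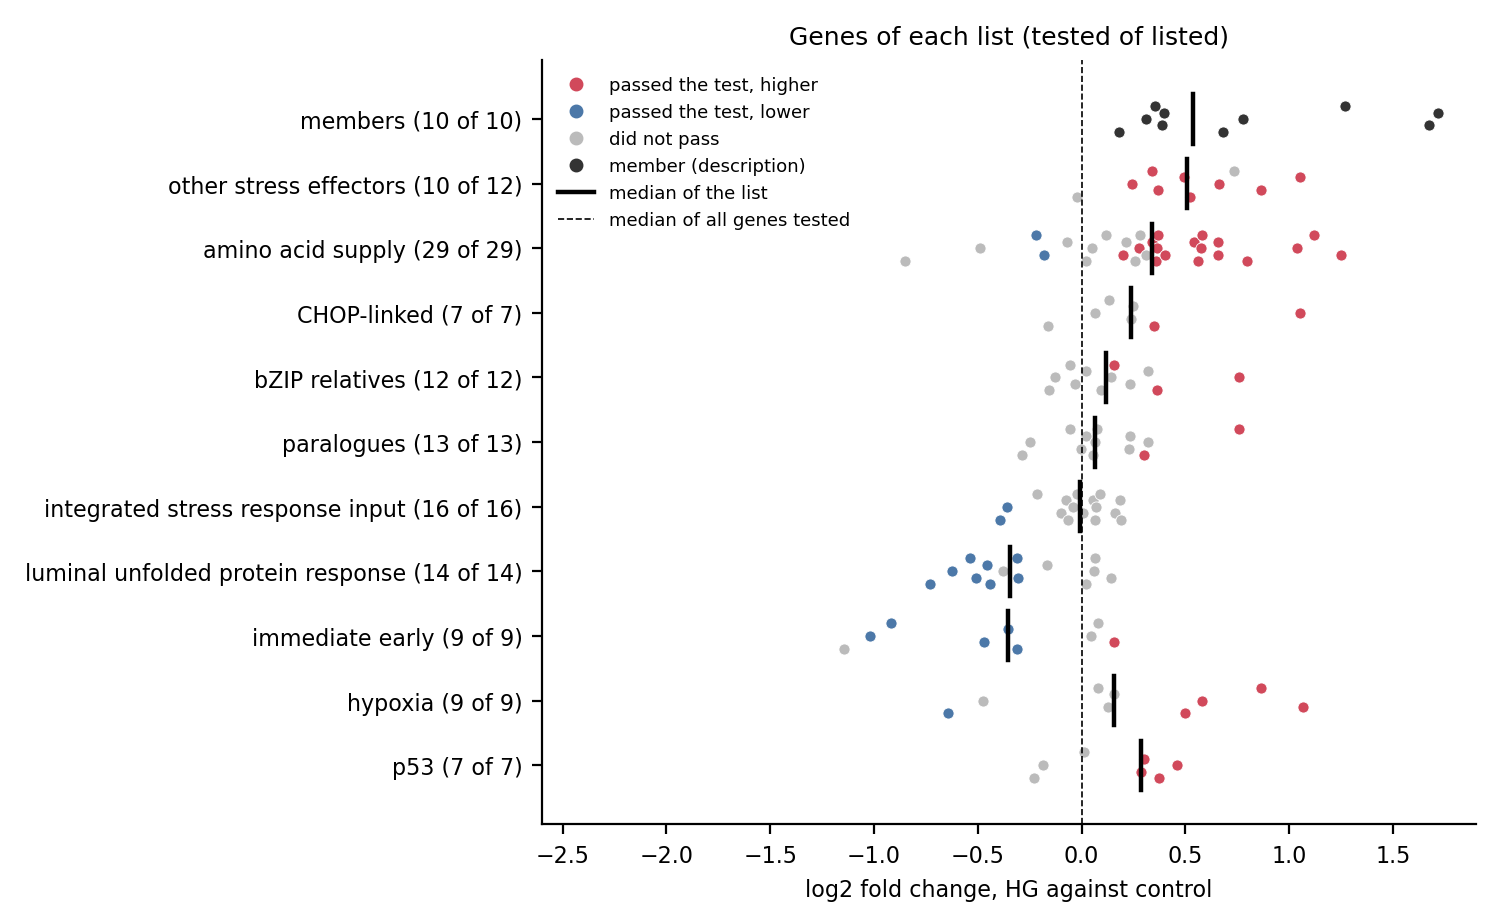
Each point is the log2 fold change of 1 tested gene, HG against control, in the list named at the left, red where it rose, blue where it fell, gray where it did not pass and black for the members, with a bar at the median of each list and a dashed line at the median of all genes tested. The medians of the other stress effectors and the amino acid supply genes lie at 0.51 and 0.34, and that of the luminal unfolded protein response at -0.34.

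Upstream of ATF4, the list of eIF2, its kinases, its exchange factor eIF2B and their regulators had a median of -0.008, and 0 of its 16 genes rose and 2 fell, beside the 15.4% of all genes that passed. The direction of its calls depended on the method: 2 rose and 2 fell with DESeq2, and 1 rose and 0 fell with limma on either FPKM scale. DELE1, a relay of mitochondrial stress, did not pass with all libraries but rose with limma, DESeq2, library size alone or the GC correction, and without control replicate 4. IMPACT, which restrains the kinase GCN2, rose without HG_1 and without both control replicate 2 and HG_1. The ones that fell were EIF2AK3, the kinase PERK that senses ER stress, with a log2 fold change of -0.39 (SE 0.105) from a control level of 38.1 ± 3.77 CPM, and DNAJC3, an ER co-chaperone that inhibits such kinases, from 63.6 ± 6.47 to 49.6 ± 4.92 CPM (SD, n = 5 each). For EIF2AK3, edgeR gave an adjusted p of 0.0282, and between 0.0554 and 0.0734 when HG_3 or any 1 of control replicates 1, 3, 4 and 5 was left out. It also did not pass with library size alone or with limma (adjusted p = 0.052 to 0.0808), while its log2 fold change lay between -0.42 and -0.36 in all of these fits. DNAJC3 (adjusted p = 0.0189) passed whichever library was omitted, but not with limma on log2 FPKM with either added constant. These are mRNA levels, and phosphorylation of eIF2 was not measured in these files.

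Of the 12 bZIP relatives that can pair with the members' products, 3 rose and none fell, with a median of 0.12. Of all genes tested, 7.62% rose and 7.80% fell. CEBPG, a C/EBP partner of ATF4, rose from 16.2 ± 0.749 to 27.5 ± 3.51 CPM, with a log2 fold change of 0.76 (SE 0.0900, adjusted p = 0.000383 from edgeR), larger than that of ATF4 or CEBPB. JUND rose from 198 ± 14.5 to 255 ± 34.9 CPM and JUN from 208 ± 9.96 to 232 ± 4.58 CPM (SD, n = 5 each). JUND did not pass without HG_3 or control replicate 1 (adjusted p = 0.0507 to 0.0514), and JUN did not pass without HG_3, HG_4, HG_5 or control replicate 3 (adjusted p = 0.0528 to 0.0691 from edgeR). Without HG_3 the count was 1, CEBPG, where 1648 of all 15058 genes then tested passed. Without both control replicate 2 and HG_1 it was 7, with ATF2, ATF5, ATF7 and JDP2 added, where 4035 of all 14899 genes passed. ATF7 changed side between these fits: its log2 fold change was -0.13 (SE 0.370) with all libraries, where HG_1 held 199 counts, and it passed as a rise without the 2 libraries. ATF2 also passed without HG_1 alone, and JDP2 without control replicate 2 alone. With the GC correction 4 rose and 1 fell, CREB1, at a log2 fold change of -0.16 (SE 0.116) with all libraries.

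Of 13 paralogues of the members, 2 rose, CEBPG and SESN1, none fell, and the median was 0.065. The share that passed equals the 15.4% of all genes tested. SESN1, a sestrin regulated by p53, rose from 38.9 ± 0.792 to 47.8 ± 3.01 CPM, and its call was lost on the FPKM scale (adjusted p = 0.0602 to 0.0631 with limma), although its log2 fold change there, 0.39 to 0.42, was larger than the 0.30 from counts. For the relatives of ASNS, TRIB3 and CHAC1, log2 fold changes were 0.05 for ASNSD1 (SE 0.0640), 0.23 for TRIB1 (SE 0.0938), 0.07 for TRIB2 (SE 0.138) and -0.29 for CHAC2 (SE 0.127). CHAC2 thus stood on the other side of 0 from CHAC1, and passed, as a fall, only when HG_4 was left out or with the GC correction. The remaining relatives were at 0.23 for ATF5, 0.32 for JDP2, -0.06 for CEBPA, 0.02 for CEBPD, -0.25 for SESN3, -0.0022 for DDIT4L and 0.06 for PPP1R15B, none of them past the threshold with all libraries. JDP2 passed, as a rise, without control replicate 2, and ATF5 with the GC correction or without both control replicate 2 and HG_1. Whether a member and its relative differ was not tested.

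Of 7 genes outside the members that are linked to CHOP, 2 rose and none fell, where 7.62% of all genes tested rose. The median was 0.24, with 6 of the 7 above 0. The list holds no member, whether or not CHOP acts on it, so it is not a full set of genes linked to CHOP. Those that rose were NUPR1, a small stress-induced chromatin protein, and ERO1A, an ER oxidase. The same NUPR1 value is also counted among the further stress effectors of ATF4 below. NUPR1 was at 74.1, 119, 92.5, 86.8 and 85.1 CPM in control replicates 1 to 5 and at 252, 178, 196, 156 and 168 CPM in HG_1 to HG_5, with a log2 fold change of 1.05 (SE 0.149, adjusted p = 0.00102 from edgeR). ERO1A rose from 103 ± 4.76 to 131 ± 11.4 CPM (SD, n = 5 each), with a log2 fold change of 0.35 (SE 0.0631). Both passed whichever single library was omitted.

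The other 5 genes of this list did not pass, where 15.4% of all genes tested passed in either direction. The BH3-only genes were at 21.5 ± 2.19 and 25.5 ± 4.38 CPM for BBC3, at 14.7 ± 0.838 and 13.1 ± 1.01 CPM for BCL2L11 and at 12.4 ± 1.51 and 13.6 ± 2.71 CPM for PMAIP1, in the control and the HG group. The death receptor gene TNFRSF10B was at 212 ± 12.5 and 222 ± 8.58 CPM, and the oxidase gene ERO1B at 5.03 ± 0.649 and 5.92 ± 0.496 CPM (SD, n = 5 each). In each of these 5 genes the groups overlapped. Their log2 fold changes ran from -0.16 for BCL2L11 (SE 0.0727) to 0.25 for BBC3 (SE 0.118), and BBC3 passed only with the correction for GC content and length. A value short of the threshold does not show that a gene was equal in both groups.

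Of 12 further stress effectors of ATF4, 10 were tested, 8 rose and none fell, with a median of 0.51, where 7.62% of all genes tested rose. Among the 8 is the autophagy receptor gene SQSTM1, which did not pass without HG_2 or control replicates 1, 3 or 4 (adjusted p = 0.053 to 0.0541) or with limma. The largest rises were those of NUPR1, given above, and of VEGFA, the vascular growth factor, from 47.8 ± 2.07 to 87.1 ± 9.12 CPM (log2 fold change 0.87, SE 0.0722, adjusted p = 6.97e-05 from edgeR). VLDLR did not pass, at a log2 fold change of -0.02 (SE 0.0850), nor did the secreted stress factor GDF15, at 0.73 (SE 0.326) and below 1 CPM in both groups. FGF21 had no count in any library, which allows up to 0.0654 to 0.0925 CPM for 3 counts, and ADM2 was below the filter.

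The amino acid supply genes, the class to which ASNS belongs by function, were listed as known targets of ATF4. Of these 29 genes, 17 rose and 2 fell, with a median of 0.34, where 7.62% of all genes tested rose and 7.80% fell. PSAT1 rose from 71.6 ± 3.68 to 170.1 ± 2.06 CPM (log2 fold change 1.25, SE 0.0432, adjusted p = 1.02e-07 from edgeR) and PHGDH, the first enzyme of serine synthesis, from 98.0 ± 11.3 to 213 ± 32.7 CPM (SD, n = 5 each). The genes that fell were SLC7A5, the large neutral amino acid transporter, from 1098 ± 21.4 to 941 ± 57.5 CPM, and ALDH18A1, an enzyme of proline synthesis, from 92.6 ± 5.72 to 81.5 ± 3.02 CPM. ALDH18A1 lost its call when any 1 of HG_2, HG_4, HG_5 or control replicates 1, 4 and 5 was left out (adjusted p = 0.0629 to 0.0828). Split by function after the values were seen, 9 of 10 genes for tRNA charging rose, 6 of 11 genes of amino acid and one-carbon synthesis rose and 1 fell, and of 8 genes for uptake 2 rose and 1 fell. TARS1, 1 of the 9 for tRNA charging, did not pass without HG_2, HG_3, HG_4, HG_5 or control replicates 2, 3 or 5 (adjusted p = 0.0537 to 0.0774), nor with limma (adjusted p = 0.102). The CARE core was in a promoter window of 7 of the 22 amino acid supply genes with a window in the table, against 1.08% of all genes there. Because the list was drawn from known ATF4 targets, this share is not that of amino acid genes in general, and nothing is read from it. Of the genes with a window in other lists, the core was in 0 of 5 CHOP-linked genes and 3 of 11 paralogues. Among the further stress effectors it was in 1 of 8, FGF21, which had no count.

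In the list of luminal unfolded protein response genes, targets of ATF6 and XBP1 that belong to the other arms of ER stress signaling, 0 of 14 rose and 8 fell, with a median of -0.34. The shares over all genes tested were 7.62% risen and 7.80% fallen. HSPA5, the ER chaperone BiP, fell from 949 ± 33.2 to 571 ± 28.4 CPM (log2 fold change -0.73, SE 0.0455, adjusted p = 1.95e-05 from edgeR), and HYOU1, another ER chaperone, from 120 ± 14.6 to 77.8 ± 2.69 CPM (SD, n = 5 each). Every HG library was below every control library in all 8, as in 6.91% of all genes tested. These 8 had already passed as lower in the same comparison, so their separation adds no support. The higher level of DDIT3 in the HG group thus stood beside lower levels of ER chaperone genes.

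The last 3 lists hold classes in which single members are also placed. Their counts stand beside the 7.62% of all genes tested that rose and the 7.80% that fell. Immediate early genes, the class of ATF3 and PPP1R15A, rose in 1 of 9 (JUN, which did not pass without HG_3, HG_4, HG_5 or control replicate 3, with log2 fold changes of 0.15 to 0.16) and fell in 5, among them FOSB, from 1.79 ± 0.283 to 0.881 ± 0.170 CPM, and EGR1, from 2.43 ± 0.312 to 1.28 ± 0.188 CPM. JUNB, 1 of the 5, did not pass without HG_2, HG_3, HG_4, HG_5 or control replicates 1, 2 or 3 (adjusted p = 0.0612 to 0.0896). Targets of the hypoxia factor HIF, the class of DDIT4, rose in 4 of 9 and fell in 1: CA9, a carbonic anhydrase, rose from 8.92 ± 1.84 to 18.7 ± 3.96 CPM, and SLC2A1, the glucose transporter GLUT1, fell from 916 ± 49.2 to 586 ± 42.0 CPM (SD, n = 5 each). VEGFA, with the log2 fold change of 0.87 given above, is also 1 of the 4, so the same value is counted in both lists. PDK1, 1 of the 4, passed in single-library omissions only without HG_1 or control replicate 5 (adjusted p = 0.0628 to 0.0819 in the other 8), and did not pass with limma (adjusted p = 0.0984 to 0.103). Targets of p53, the class of SESN2, rose in 4 of 7, MDM2, CDKN1A, SESN1 and FDXR, with log2 fold changes of 0.29, 0.46, 0.30 and 0.37. FDXR lost its call when any 1 of HG_2, HG_3, HG_4, HG_5 or control replicates 1, 3, 4 and 5 was left out (adjusted p = 0.0574 to 0.102 from edgeR). The oxidoreductase gene TP53I3, at a log2 fold change of -0.19 (SE 0.0924) with all libraries, passed as a fall without HG_1, without both control replicate 2 and HG_1, and with the GC correction. Medians of the 3 lists were -0.36, 0.16 and 0.29.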

How the data were processed

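The authors deposited 1 table of whole-number read counts per gene or locus, without normalization, and 1 table of FPKM. How the authors derived the deposited FPKM, and from which transcript lengths, is not given in the sources used here. The submitters' processing notes name fastp 0.20.1, HISAT2 2.2.1 and GRCh38. The counting program, its annotation and its use of strand are not given in the sources used here. Of the 22626 rows, 20463 carry Ensembl identifiers, of which 20232 were found in GENCODE release 29, the source of positions and overlaps.

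Counts were tested with edgeR 4.0.16 in R 4.3.3 (default filter on low counts, TMM, quasi-likelihood test, Benjamini-Hochberg adjustment over 14936 rows), without covariates. SE is the absolute log2 fold change divided by the square root of the F statistic. Steps were tested on simulated data. In each list, genes named are all that passed where these were 4 or fewer, otherwise the 2 largest rises and the 2 largest falls among those that passed, with all members, paralogues and CHOP-linked genes, and the 5 genes with a mean of at least 1 CPM most like ASNS or ATF4. GDF15, VLDLR, FGF21, ADM2, the markers named, and DELE1, IMPACT, ATF2, ATF7, CREB1, TP53I3, SQSTM1, TARS1, JUNB and PDK1, whose calls changed between settings, were named after their values were seen. The members and lists were chosen with earlier results of these data known. Alternatives were DESeq2 1.42.0, scaling by RLE or by library size only, testing every row with any count, requiring 10 counts in each library, limma 3.58.1 on log2(FPKM + 1) and log2(FPKM + 0.1), a lowess correction (span 0.3) for GC content and length over 13538 rows, control replicate 2 and HG_1 left out together, and each library left out in turn. A count of 3, the limit that 0 allows, is 0.0654 to 0.0925 CPM, and covers counting error only.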

Additional observations from a re-analysis of the deposited data

Results flagged for a closer look

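In 3 of 22 groups of 5 libraries, which were the 10 members and the total counts in each group, 1 library lay far from the others, with a gap to its nearest neighbor above 0.710 of the whole range. Chance gives this in about 1 in 20 groups of normal values, or 1.1 of 22. These groups are not independent, since control replicate 2 and HG_1 were each the highest library of their group in the same 8 members. The 3 thus cannot be weighed against 1.1. ATF4 was at 325 CPM in control replicate 2, where the other controls were between 267 and 277 CPM. In HG_1, CEBPB was at 98.3 CPM, where the other HG libraries were between 73.4 and 78.8, and PPP1R15A was at 102 CPM, where the others were between 78.4 and 85.1. All 3 values are high and lie in the 2 libraries whose counts rise with GC content. What moved them was not tested.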

How the results depend on the processing

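All 10 members kept a higher mean in the HG group under every alternative run, with log2 fold changes of at least 0.11 (PPP1R15A without HG_1). The number of members past the threshold, from which nothing is read, was between 8 and 10: it was 8 without a filter on low counts and 8 or 9 with a library left out, CEBPB being the member lost, and 10 with the GC correction or without control replicate 2 and HG_1. The fold changes that moved by more than the spread between libraries were those of ASNS, 1.54 with limma on log2(FPKM + 1) and 1.62 on log2(FPKM + 0.1), and of CHAC1, 0.915 on the former scale only.

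Over all genes, 2303 passed, 3965 with the GC correction and 4035 without control replicate 2 and HG_1, and between 1648 and 2993 with 1 library left out. Of the stress response input genes 2 passed, 4 with DESeq2 (2 higher), 1 with limma on either FPKM scale (higher), and 1 to 3 with a library left out. Of the bZIP relatives 3 passed, 5 with the GC correction (4 higher), 7 without the 2 libraries, and 1 to 4 with a library left out. Of the paralogues 2 passed, 1 with limma on either FPKM scale, 4 with the GC correction and 4 without the 2 libraries. The cause of these shifts was not tested. The other pathway lists kept within 1.5 times their count. Marker lists were not counted in this way. No paired analysis was possible because the HG libraries carry no replicate numbers in the labels. Depth limits CHAC1 most, with 26 counts in the lowest control library.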
